A study of Epimedium pubescens with 27 samples.

Results

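Leaves of *Epimedium pubescens*, a perennial herb of the barberry family grown for its prenylated flavonoids, were compared after 36 days of watering with 22.5 mM nitrate (HN) and after 36 days with 0 mM nitrate (LN). This is the widest nitrate contrast of the series at its middle stage (S2), and it is described here across all genes. It rests on 6 of the 27 RNA-seq libraries, 3 of HN (HN A, HN B and HN C) and 3 of LN (LN A, LN B and LN C). The other libraries come from the 7.5 mM treatment (MN) at S2 and from the same 3 treatments after 24 days (S1) and 48 days (S3). All plants were 1-year-old seedlings from a commercial grower, potted in sand and perlite in a greenhouse, and all had recovered on dilute Hoagland solution before the treatments began. The extra nitrate of HN was given as a sodium salt, whereas calcium chloride and potassium sulfate were added to keep the other ions in balance, so the effect of nitrate cannot be told apart from that of sodium, chloride or sulfate. How many plants went into a library is not stated, and p-values therefore measure the spread between these libraries.

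Nitrate is both a nutrient and a signal in plants. It is reduced to nitrite and then to ammonium by nitrate reductase and nitrite reductase, the ammonium enters amino acids through glutamine synthetase and glutamate synthase, and transporters of the NRT1/PTR (NPF), NRT2 and CLC families move nitrate between soil, xylem and vacuole. Leaves short of nitrogen are known to keep more starch and to break down photosynthetic proteins, and carbon can then pass to phenylpropanoids, the route that leads to both lignin and flavonoids.

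The 6 libraries held 14495329 to 17801159 counted reads. After removal of genes with too few reads, 22609 of 58645 genes were tested. Levels are given as FPKM (fragments per kilobase of transcript, scaled to library depth). Among the marker lists, that of mesophyll had the highest summed FPKM, 42558 to 64679 in HN and 47940 to 75931 in LN. All tested genes together summed to 659711 to 772941 FPKM in HN and 746485 to 777737 FPKM in LN. The root marker list, of 3 genes too low to be tested, summed to 0 to 0.184 FPKM in HN and 0.289 to 0.475 FPKM in LN, and the flower list to 79.2 to 90.6 FPKM in HN and 77.9 to 82.3 FPKM in LN. The libraries of a group were unevenly alike. HN B and HN C differed by a coefficient of variation of 0.251 over genes, and LN A and LN B by 0.289, whereas every other pair within a group differed by 0.506 to 0.651, which is about the range between HN and LN libraries (0.479 to 0.659). HN A and LN C therefore stand apart from the other libraries of their groups, and 613 genes in HN and 784 in LN had at least 2 CPM (counts scaled to library depth) in 1 library and no read in another library of the same group.

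Which genes differed between the leaf libraries of HN and LN at S2 was asked first. A gene was called where its p, adjusted by the Benjamini-Hochberg method, was below 0.05 and its level differed by 1 or more on the log2 scale. With edgeR's quasi-likelihood test 1 gene rose in HN and 1 fell, each 0.00442% and together 0.00885% of the tested genes. The gene that rose encodes a laccase (Ebr03G035930), and the gene that fell is a transcript assembled by the authors that matches a PLAC8 protein of Arabidopsis. At an unadjusted p below 0.05 there were 3969 genes (17.6%), 2037 higher (9.01%) and 1932 lower (8.55%). DESeq2, the tool of the study, called 1601 DEGs under the same thresholds (890 higher and 711 lower), and 1366 of these were among the genes tested by edgeR (6.04%, with 3.33% higher and 2.71% lower). Of those 1366 genes, 1365 had an unadjusted edgeR p below 0.05 with the same sign. The 3 HN values lay wholly above the 3 LN values in 3246 tested genes (14.4%) and wholly below them in 2637 (11.7%). The number of calls depended on the 2 libraries that stand apart: edgeR called 119 genes higher and 35 lower without HN A, and 88 higher and 131 lower without LN C. Below, a gene is said to have risen or fallen only where it passed the edgeR test, and genes called by DESeq2 alone are named as such.

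The gene that fell lay in a block of neighbouring genes on chromosome 2 with reads in LN and few in HN. Its genes encode PLAC8 proteins, small cysteine-rich membrane proteins that include the PLANT CADMIUM RESISTANCE (PCR) proteins of Arabidopsis, which are known for moving cadmium and zinc ions, and the cell number regulators (CNR) of maize, named for their effect on organ size. The assembled transcript, matched to PCR3 and placed by the files on chromosome 2 from 348798372 to 348901729, had 1.17, 1.17 and 0.897 FPKM in HN, against 43.0, 54.6 and 49.2 FPKM in LN. It fell by 5.54 ± 0.21 (SE) on the log2 scale (edgeR adjusted p = 0.0018). That p was 0.0707 without HN B, 0.135 with the replicate letters as a block, 0.269 with the 9 libraries of S2 and 0.244 with all 27, while the log2 fold change was -5.64 to -4.58 over the edgeR and limma settings. The name of the genome build is not given in the sources at hand.

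The other 4 PLAC8 genes of the block lie within the span of the assembled PCR3 transcript, on the same strand, and all 4 were low in HN. Ebr02G040490 (CNR10) had 0, 0 and 0.646 FPKM in HN, against 42.1, 48.7 and 56.5 FPKM in LN. Ebr02G040500 (CNR10) had 5.66, 1.26 and 3.18 FPKM in HN, against 141, 87.4 and 287 FPKM in LN. Ebr02G040510 (PCR3) had 8.85, 4.26 and 2.02 FPKM in HN, against 177, 202 and 120 FPKM in LN. No library of one group reached the values of the other. Ebr02G040520 (CNR1) had no read in any HN library and 32.8, 35.3 and 62.0 FPKM in LN, a level at least 134-fold lower in HN when each HN library is set at 3 counts. DESeq2 called all 4 genes lower (adjusted p of 1.5e-16 or below for the first 3 and 2.8e-15 for Ebr02G040520), while their edgeR adjusted p was 0.076 to 0.081. The assembled transcript spans the other 4 genes on one strand, and all 5 match PLAC8 proteins, but their sequences were not compared. Reads may have been split or shared between them, and the number of separate genes behind the difference is uncertain.

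The difference did not extend upstream. The next PLAC8 gene upstream, Ebr02G040480 (PCR2), had 100, 28.7 and 20.99 FPKM in HN, against 35.1, 33.0 and 47.7 FPKM in LN, so that its groups overlapped. Within 200000 bases of the assembled PCR3 transcript the files list 9 PLAC8 genes. Of the 9 other PLAC8 genes that were tested elsewhere in the genome, 1 had groups without overlap. The other stages and the MN libraries gave no gradual response to nitrate. In MN at S2, the assembled transcript had 42.5, 0.0374 and 0.0680 FPKM, which is the LN level in 1 library and below the HN level in the others. At S1 it had 0.201, 0 and 0 FPKM in HN, against 7.75, 4.05 and 51.8 FPKM in LN. At S3 it had 18.1, 19.6 and 28.9 FPKM in HN, against 33.2, 41.7 and 37.9 FPKM in LN. The transcript thus had lower values in HN at all 3 stages, with the smallest gap at S3, where the log2 fold change was -0.77.

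**Figure D1:**
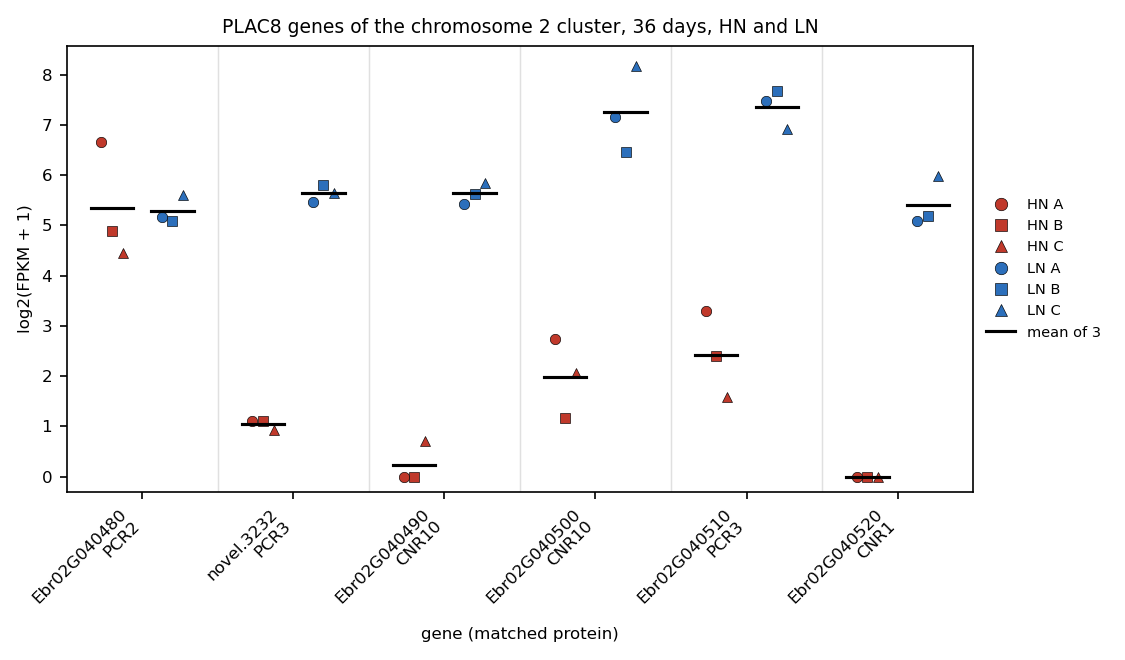
FPKM of 6 PLAC8 genes on chromosome 2, in their order along the chromosome, plotted as log2(FPKM + 1) for each HN library (red, left of each pair) and each LN library (blue, right), with a black line at the mean of the 3 plotted values; PCR and CNR stand for the plant cadmium resistance and cell number regulator proteins matched. The 5 genes from the assembled PCR3 transcript (second pair) on reach at most 8.85 FPKM in HN and at least 32.8 FPKM in LN, whereas the groups overlap for Ebr02G040480.

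Genes of the secondary cell wall were higher in HN. Laccases oxidise lignin precursors in the walls of xylem and fibre cells, and in Arabidopsis laccase-4 and laccase-17 are the main ones in stems. The gene that passed the edgeR test, Ebr03G035930 (laccase-22 of rice, chromosome 3 from 288523455 to 288525848), had 10.47, 11.2 and 11.1 FPKM in HN, against 1.22, 1.52 and 1.21 FPKM in LN. It rose by 3.01 ± 0.22 (SE) on the log2 scale (edgeR adjusted p = 0.048). Its level was not ordered by nitrate in the rest of the series, with 0.99, 81.9 and 6.23 FPKM in MN at S2, and with 8.73, 8.23 and 8.14 FPKM in HN against 0.138, 9.85 and 0.0343 FPKM in LN at S3. Leaving out LN A, LN B, HN B or HN C took its edgeR adjusted p to 0.18 to 0.34, with log2 fold changes of 2.94 to 3.12.

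Of the 49 tested genes of the xylem and secondary wall list (laccases, fasciclin-like arabinogalactan proteins, irregular xylem proteins, cellulose synthase subunits of secondary walls and COBRA-like 4), 22 had all HN values above all LN values and 4 had them below, against 14.4% and 11.7% of all tested genes. DESeq2 called 15 higher and 1 lower, against 3.33% and 2.71% of all tested genes. The median log2 fold change was 1.64, with 40 of the 49 above 0, while the median of all tested genes was -0.00. Over every member with reads, DESeq2 called 16 of 82 genes higher, and 9 to 27 when each library was left out. The summed FPKM of the list was 2143, 4463 and 3450 in HN, against 1394, 1425 and 497 in LN, so HN A lies nearest to LN and LN C lies below the others. In MN at S2 the sums were 571, 4880 and 1893 FPKM. The MN libraries thus ran from near the lowest LN sum to above the highest HN sum. In bulk leaves, fewer xylem or fibre cells and less RNA in each cell cannot be told apart. Lists named for other leaf tissues leaned to HN too. They rest on words in gene descriptions, and whether each member marks its tissue was not tested. Of 43 tested genes of the epidermis and guard cell list, 34 had a log2 fold change above 0 (median 0.48). Without overlap, 13 were higher and 2 lower. The list summed to 1144 to 1723 FPKM in HN and 422 to 1254 FPKM in LN. Of 16 tested phloem markers, 12 were above 0 (median 0.36), 4 were higher and 1 lower without overlap, and the sums were 178 to 247 FPKM in HN and 140 to 158 FPKM in LN. The part of such tissues in the result was not tested.

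Individual wall genes showed how the libraries contributed. A laccase-17 gene (Ebr06G001750) had 26.6, 39.3 and 26.1 FPKM in HN, against 6.18, 7.16 and 6.10 FPKM in LN, an even separation (log2 fold change 2.21 ± 0.21 SE, edgeR adjusted p = 0.076, DESeq2 adjusted p = 1.7e-12). A second copy, Ebr06G001630, had 5.02, 10.5 and 7.28 FPKM in HN, against 1.16, 0.916 and 0.750 FPKM in LN. XCP2 (Ebr05G036910), a cysteine protease of xylem vessels in Arabidopsis, had 15.3, 17.9 and 24.6 FPKM in HN, against 0.979, 1.85 and 2.29 FPKM in LN, and was called higher by DESeq2 (log2 fold change 3.45). The regulators behaved alike. NAC43 (Ebr04G021980), which switches on secondary wall synthesis in Arabidopsis, had 0.977, 3.33 and 4.18 FPKM in HN, against 0.0712, 0.134 and 0.273 FPKM in LN. MYB46 (Ebr0G008180), which acts downstream of such NAC factors in Arabidopsis, had 5.31, 21.6 and 17.8 FPKM in HN, against 2.15, 1.25 and 0.306 FPKM in LN. DESeq2 called both regulators higher (adjusted p = 0.0017 for NAC43 and 0.00013 for MYB46), and their edgeR adjusted p was 0.10 and 0.11.

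Structural genes of the secondary wall were pulled apart most by LN C. Fasciclin-like arabinogalactan protein 11 (Ebr01G052080) had 258, 551 and 388 FPKM in HN, against 86.8, 60.1 and 6.45 FPKM in LN. COBRA-like 4 (Ebr02G036240), needed for cellulose deposition in Arabidopsis stems, had 110, 149 and 128 FPKM in HN, against 39.7, 33.5 and 2.67 FPKM in LN. Cellulose synthase subunit 8 (Ebr03G029130) had 137, 100 and 94.3 FPKM in HN, against 37.3, 48.2 and 4.46 FPKM in LN. In each of these genes LN C was far below the other LN libraries. IRREGULAR XYLEM 15 (Ebr04G074190), which acts in xylan synthesis, had 106, 85.8 and 78.0 FPKM in HN, against 39.3, 43.7 and 2.52 FPKM in LN. DESeq2 called the fasciclin-like gene and COBRA-like 4 higher (adjusted p = 0.0028 and 0.031) but neither of the other genes. Fasciclin-like protein 4 (Ebr01G064790) was even within groups, with 31.2, 42.7 and 31.3 FPKM in HN, against 15.7, 14.5 and 14.9 FPKM in LN.

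Other laccase genes were highest in HN B and HN C. A laccase-17 gene on chromosome 3 (Ebr03G003450) had 1.89, 152 and 119 FPKM in HN, against 0.936, 0.213 and 1.42 FPKM in LN. Laccase-5 (Ebr06G020340) had 16.1, 438 and 385 FPKM in HN, against 5.59, 2.05 and 46.9 FPKM in LN. Laccase-4 (Ebr03G035940), next to the laccase that rose, had 21.6, 86.0 and 56.0 FPKM in HN, against 6.96, 5.19 and 0.568 FPKM in LN. For laccase-5 the groups overlapped, and HN A was below LN C. An assembled laccase-17 transcript on chromosome 4 (102307137 to 102309433) went the other way, with no read in HN and 1.36, 1.62 and 1.72 FPKM in LN, at least 19.2-fold lower in HN when each HN library is set at 3 counts. The wider list of 108 laccases and peroxidases, which holds the same laccases, had 26 genes without overlap higher and 10 lower. DESeq2 called 21 higher and 7 lower, and the median log2 fold change was 0.39. These counts are to be read against 14.4% and 11.7% of all tested genes without overlap, and 3.33% and 2.71% called by DESeq2.

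**Figure D2:**
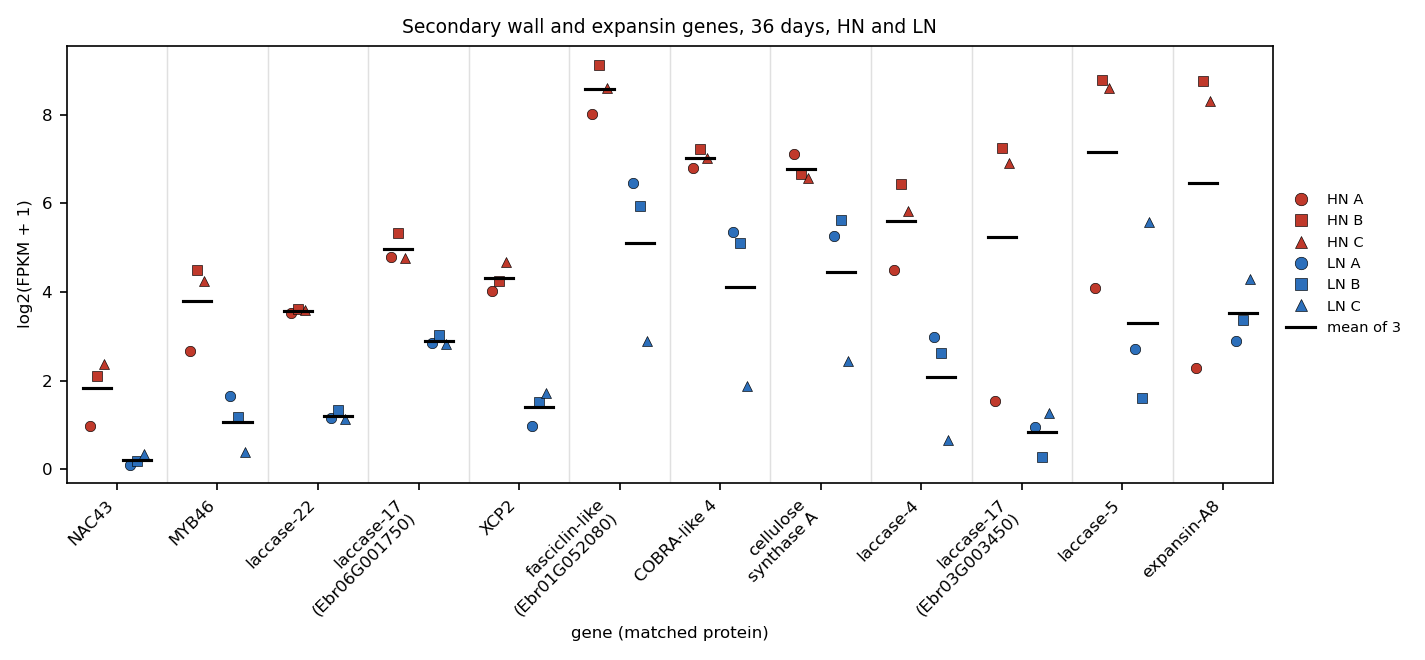
Secondary wall and expansin genes at 36 days as log2(FPKM + 1), with HN libraries in red at the left of each pair, LN libraries in blue at the right, symbols for libraries A, B and C, and black lines at the mean of the 3 plotted values. Laccase-22, laccase-17 (Ebr06G001750) and XCP2 separate evenly, LN C (blue triangle) lies lowest for the fasciclin-like gene, COBRA-like 4 and the cellulose synthase, and HN A (red circle) lies far below HN B and HN C for the last 3 genes.

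Several genes of primary wall loosening and auxin response were also highest in HN B and HN C. Expansins and xyloglucan endotransglucosylases loosen growing walls, and SAUR proteins act in auxin-driven cell expansion. Expansin-A8 (Ebr03G068350) had 3.90, 429 and 314 FPKM in HN, against 6.45, 9.24 and 18.51 FPKM in LN, with HN A below all LN libraries. A second expansin-A8 gene (Ebr01G040450) had 7.28, 127 and 96.7 FPKM in HN, against 0.243, 0.229 and 4.71 FPKM in LN. XTH9 (Ebr03G022690), a xyloglucan endotransglucosylase, had 76.0, 376 and 323 FPKM in HN, against 19.5, 12.8 and 30.2 FPKM in LN. In all of these HN A was the lowest HN library. SAUR50 (Ebr0G010070) had 58.6, 455 and 314 FPKM in HN, against 14.7, 14.3 and 35.5 FPKM in LN, and a pectate lyase (Ebr03G051860), which cuts wall pectin, had 23.4, 352 and 204 FPKM in HN, against 14.2, 5.49 and 4.37 FPKM in LN. Of 42 tested expansin and xyloglucan genes, 7 were without overlap higher and 3 lower, to be read against 14.4% and 11.7% of all tested genes. DESeq2 called 10 higher and 3 lower, against 3.33% and 2.71% of all tested genes. The median log2 fold change of 1.03 ranged from 0.76 to 2.20 when each library was left out. The summed FPKM of this list was 1248, 3863 and 3067 in HN, against 1320, 1727 and 1187 in LN. The sum of HN A lay within the range of the LN libraries. Pectin-modifying genes (61 tested, 7 higher and 1 lower without overlap) and auxin response genes (36 tested, 8 higher and 4 lower) had medians of 0.57 and 0.68, with the same shares of all tested genes to set their counts against.

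Transcription factors of the AP2/ERF family were lower in HN. Many of these factors respond to ethylene, wounding, low oxygen or oxidative stress, and bind GCC-type elements in promoters of defence genes. Of 44 tested members, 19 had all HN values below all LN values and 3 had them above, against 11.7% and 14.4% of all tested genes. DESeq2 called 14 lower and none higher, and edgeR called none (2 higher and 19 lower at an unadjusted p below 0.05). Over all tested genes, DESeq2 called 2.71% lower and 3.33% higher. The shares at an unadjusted edgeR p below 0.05 were 8.55% lower and 9.01% higher. The median log2 fold change was -0.46, and -0.66 to -0.51 when each library was left out. Over every member with reads DESeq2 called 15 of 70 lower, and 9 to 15 when each library was left out.

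A tandem array on chromosome 4 held 7 of these genes. Between 83705375 and 84109784 the files place 20 genes, of which 10 match ethylene-responsive transcription factor 5 of tobacco species. Of these 10, 8 were tested and 7 were lower in HN without overlap. All 7 were called by DESeq2. Ebr04G011570 had 5.66, 5.31 and 4.69 FPKM in HN, against 103, 280 and 22.1 FPKM in LN. Ebr04G011600 had 1.65, 2.26 and 1.19 FPKM in HN, against 25.0, 76.1 and 10.6 FPKM in LN. Ebr04G011630 had 0.658, 1.17 and 0.951 FPKM in HN, against 15.2, 42.2 and 5.64 FPKM in LN. In all of these LN B was the highest of the HN and LN libraries and LN C the lowest of LN. Ebr04G011700 had 8.32, 1.86 and 3.87 FPKM in HN, against 68.1, 198 and 25.2 FPKM in LN, and Ebr04G011710 had 4.96, 0.482 and 1.62 FPKM in HN, against 20.6, 67.7 and 9.41 FPKM in LN. The most abundant gene of the array, Ebr04G011530, had 81.5, 130 and 82.1 FPKM in HN, against 218, 482 and 143 FPKM in LN, and Ebr04G011540 had 4.15, 18.6 and 13.2 FPKM in HN, against 56.2, 135 and 31.7 FPKM in LN. The edgeR adjusted p of the 7 genes was 0.097 to 0.18. Genes of the array with the same match may share reads, and their sequences were not compared. The number of genes is thus less certain than the difference of the array as a whole.

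ERF genes elsewhere were also lower. ERF109 (Ebr04G050420), a stress-response factor of Arabidopsis, had 0.198, 0 and 0.358 FPKM in HN, against 11.04, 34.7 and 2.83 FPKM in LN. A second ERF109 gene close by, Ebr04G050460, had no read in HN and 1.02, 4.28 and 1.27 FPKM in LN, at least 9.94-fold lower in HN when each HN library is set at 3 counts. ERF018 (Ebr05G047120) had 1.11, 0.231 and 0.813 FPKM in HN, against 8.70, 25.6 and 2.68 FPKM in LN. All 3 were called lower by DESeq2. RAP2-3 (Ebr01G007140), a low-oxygen response factor of Arabidopsis and the most abundant of the family, had 220, 221 and 250 FPKM in HN, against 332, 378 and 418 FPKM in LN (log2 fold change -0.74 ± 0.18 SE, DESeq2 adjusted p = 0.0064, below the fold threshold). An assembled transcript matched to LEAFY PETIOLE of Arabidopsis had 3.01, 2.62 and 2.61 FPKM in HN, against 8.74, 10.04 and 5.99 FPKM in LN. ERF3 (Ebr02G027950) overlapped, with 134, 170 and 150 FPKM in HN and 148, 186 and 184 FPKM in LN. The family was not ordered by nitrate, since its summed FPKM was 1183, 1185 and 1087 in HN, 1111, 4426 and 1292 in MN, and 1831, 2972 and 1392 in LN. A pair of NAC factors matched to soybean NAC6 had the same direction: Ebr04G057390 had 1.22, 0.428 and 1.62 FPKM in HN, against 6.21, 13.6 and 7.05 FPKM in LN, and Ebr04G057430 had 0.891, 0.726 and 0.912 FPKM in HN, against 6.17, 14.6 and 2.73 FPKM in LN.

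**Figure D3:**
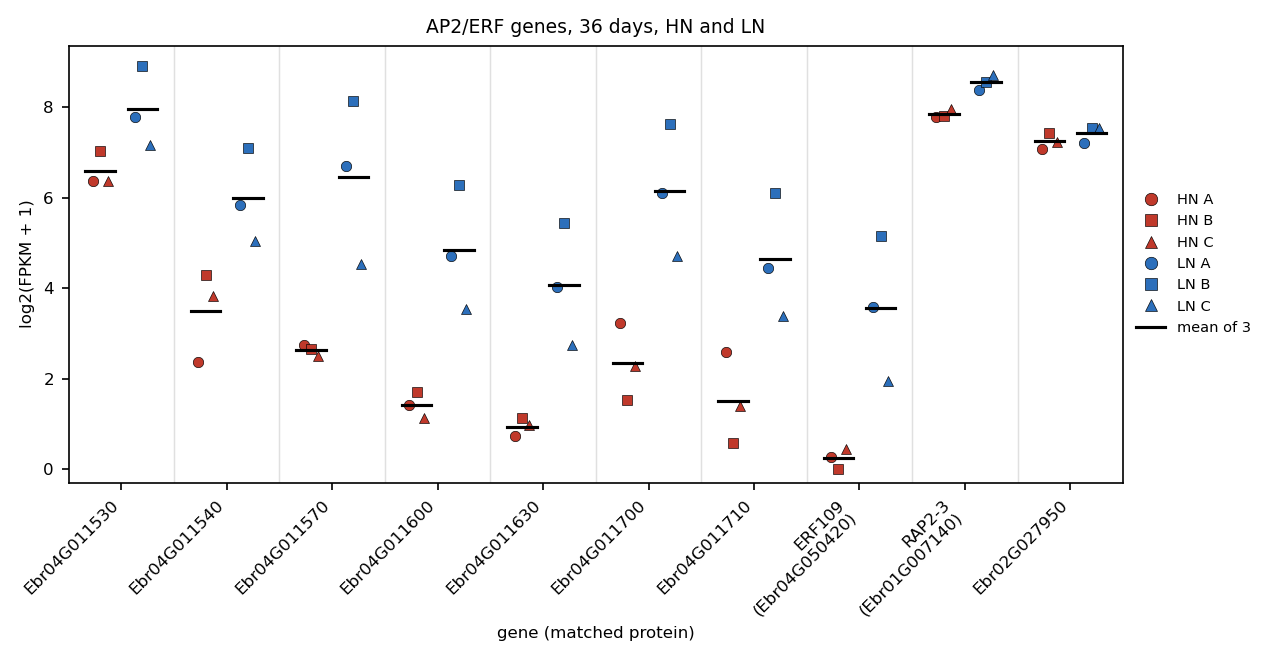
AP2/ERF genes at 36 days as log2(FPKM + 1): the 7 genes of the chromosome 4 array, ERF109, RAP2-3 and ERF3 (Ebr02G027950), with HN libraries in red at the left of each pair, LN libraries in blue at the right and black lines at the mean of the 3 plotted values. The HN values lie below the LN values for every gene but the last, and LN B (blue square) is the highest plotted library for each gene of the array.

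Genes that take up and reduce nitrate did not move as a group. Of the 14 tested genes of nitrate reduction and ammonium assimilation, 2 were higher and 1 lower without overlap, against 14.4% and 11.7% of all tested genes. The median log2 fold change was -0.20. Nitrite reductase (Ebr04G050620) had 62.1, 65.6 and 78.3 FPKM in HN, against 12.2, 5.63 and 38.2 FPKM in LN, a separation narrowed by LN C (log2 fold change 1.83 ± 0.67 SE, edgeR adjusted p = 0.24, DESeq2 adjusted p = 0.049). Nitrate reductase (Ebr02G062930) had 47.6, 45.4 and 30.3 FPKM in HN, against 35.7, 31.2 and 44.6 FPKM in LN, and overlapped. The most abundant cytosolic glutamine synthetase (Ebr01G000170) and the ferredoxin-dependent glutamate synthase (Ebr06G019690) overlapped too, with log2 fold changes of -0.27 ± 0.25 and -0.36 ± 0.20 (SE). At S3 nitrite reductase had 42.9, 46.9 and 133 FPKM in HN, against 6.36, 10.5 and 12.9 FPKM in LN, and at S1 its groups overlapped.

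Nitrate transporters went in both directions. Among 66 tested NPF genes, whose products carry nitrate, peptides or hormones, 10 were higher and 8 lower without overlap. These shares are close to the 14.4% and 11.7% of all tested genes. DESeq2 called 8 of the 66 higher, a larger share than the 3.33% of all tested genes. It called 1 lower, against 2.71%. NPF7.3 (Ebr04G006870), which loads nitrate into the root xylem in Arabidopsis, had 7.63, 5.31 and 7.92 FPKM in HN, against 2.79, 2.50 and 1.55 FPKM in LN (DESeq2 adjusted p = 0.0011). NPF2.11 (Ebr03G061400), a glucosinolate carrier in Arabidopsis, had 9.12, 16.9 and 14.7 FPKM in HN, against 2.67, 5.59 and 3.42 FPKM in LN. NPF2.13 (Ebr03G061500), which in Arabidopsis exports nitrate from older leaves, overlapped, with 104, 150 and 124 FPKM in HN and 106, 95.0 and 62.3 FPKM in LN. A pair of genes for NRT3.1, the partner protein of NRT2 transporters, differed from each other. Ebr03G053690 had 27.01, 25.2 and 19.0 FPKM in HN, against 5.36, 5.65 and 1.31 FPKM in LN. The more abundant Ebr03G053620 had 37.5, 43.0 and 46.5 FPKM in HN, against 81.6, 67.0 and 60.2 FPKM in LN. DESeq2 called the first higher, and the second had a DESeq2 adjusted p of 0.017 with a log2 fold change of -0.75, inside the fold threshold. NRT2.7 (Ebr03G055670), a vacuolar nitrate transporter of Arabidopsis seeds, had 6.18, 8.68 and 4.99 FPKM in HN, against 34.8, 22.0 and 11.6 FPKM in LN.

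Genes for other ions went both ways. Of 49 tested genes of sodium, potassium and chloride transport, 10 were higher and 7 lower without overlap. DESeq2 called 3 higher and 2 lower, and the median log2 fold change was 0.09. The shares of all tested genes, higher and lower, were 14.4% and 11.7% without overlap and 3.33% and 2.71% with DESeq2. Of 6 tested ammonium transporters, 1 was higher and 1 lower without overlap, and neither tool called any (at an unadjusted edgeR p below 0.05 there were 0 higher and 1 lower). CLC-b (Ebr02G011200), a vacuolar anion exchanger of Arabidopsis, had 21.2, 41.5 and 41.9 FPKM in HN, against 5.51, 3.39 and 7.92 FPKM in LN (log2 fold change 2.60 ± 0.41 SE, DESeq2 adjusted p = 6.2e-07), and it was on the same side at S1 and S3, with log2 fold changes of 2.09 and 2.96. AKT2/3 (Ebr01G067670), a potassium channel of the phloem, had 0.213, 0.0394 and 0.192 FPKM in HN, against 3.18, 4.64 and 3.08 FPKM in LN. Ammonium transporter 1;3 (Ebr01G066830) had 10.2, 15.5 and 13.0 FPKM in HN, against 23.8, 18.0 and 23.5 FPKM in LN. Its log2 fold change of -0.79 did not reach the fold threshold. The amino acid carrier lysine histidine transporter-like 6 (Ebr02G040190) had 58.3, 74.9 and 78.9 FPKM in HN, against 26.1, 25.2 and 30.6 FPKM in LN, and was called higher by DESeq2 (adjusted p = 2.5e-06).

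Phosphate genes leaned to HN at S2. Of 50 tested genes of phosphate transport and signalling, 15 were higher and 2 lower without overlap, 39 had a log2 fold change above 0, and the median was 0.41 (0.31 to 0.55 when each library was left out). DESeq2 called 4 higher and 1 lower. Over all tested genes, 14.4% were higher and 11.7% lower without overlap, and DESeq2 called 3.33% higher and 2.71% lower. SPX1 (Ebr05G012830), an intracellular phosphate sensor, had 72.8, 67.7 and 81.4 FPKM in HN, against 36.7, 34.1 and 28.9 FPKM in LN. The phosphate transporter PHT1-4 (Ebr02G025260) had 305, 235 and 255 FPKM in HN, against 112, 113 and 75.6 FPKM in LN. PHO1 homolog 3 (Ebr03G045300), of a family that exports phosphate, had 83.4, 85.0 and 67.9 FPKM in HN, against 47.2, 57.9 and 58.8 FPKM in LN, and was not called by either tool. The list was not stable over stages, with medians of 0.04 at S1 and -0.45 at S3. SPX1 itself had a log2 fold change of 3.32 at S1 and -2.10 at S3.

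The starch genes called by DESeq2 were all lower in HN. Granule-bound starch synthase 1 (Ebr04G020710), which makes amylose, had 198, 183 and 230 FPKM in HN, against 546, 481 and 393 FPKM in LN. Its neighbour Ebr04G020730, of the same match, had 24.4, 29.4 and 40.1 FPKM in HN, against 72.1, 66.4 and 47.9 FPKM in LN. Genes of starch breakdown pointed the same way. Beta-amylase 3 (Ebr04G008830), the main starch-degrading beta-amylase of Arabidopsis leaves, had 3.44, 2.46 and 4.38 FPKM in HN, against 13.57, 18.1 and 28.5 FPKM in LN. The inactive beta-amylase 9 (Ebr01G004090) had 39.5, 43.3 and 40.5 FPKM in HN, against 127, 84.0 and 137 FPKM in LN. An alpha-amylase (Ebr03G004260) had 1.83, 1.53 and 1.32 FPKM in HN, against 15.1, 4.20 and 33.4 FPKM in LN. These 5 genes were called lower by DESeq2 (adjusted p of 0.014 or below), and their edgeR adjusted p was 0.081 to 0.13. Of 26 tested genes of starch breakdown 7 were lower and 1 higher without overlap, and of 15 of starch synthesis 4 were lower and 1 higher. The medians were close to 0 (-0.13 and -0.07). DESeq2 called 3 of the 26 and 3 of the 15 lower, and none higher. Over all tested genes, 11.7% were lower and 14.4% higher without overlap, and DESeq2 called 2.71% lower and 3.33% higher. The small subunit of ADP-glucose pyrophosphorylase (Ebr06G059080), the committed enzyme of starch synthesis, was the member of the second list that lay higher, with 103, 106 and 112 FPKM in HN, against 87.7, 64.2 and 76.0 FPKM in LN. Of these genes, granule-bound starch synthase and beta-amylase 9 had log2 fold changes of 0.89 and 0.83 at S1 and of -1.52 and -1.53 at S3. The 25 tested genes of sucrose and sugar transport included 21 above 0, with a median of 0.36, 3 without overlap and none called by DESeq2 or edgeR (2 at an unadjusted edgeR p below 0.05).

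**Figure D4:**
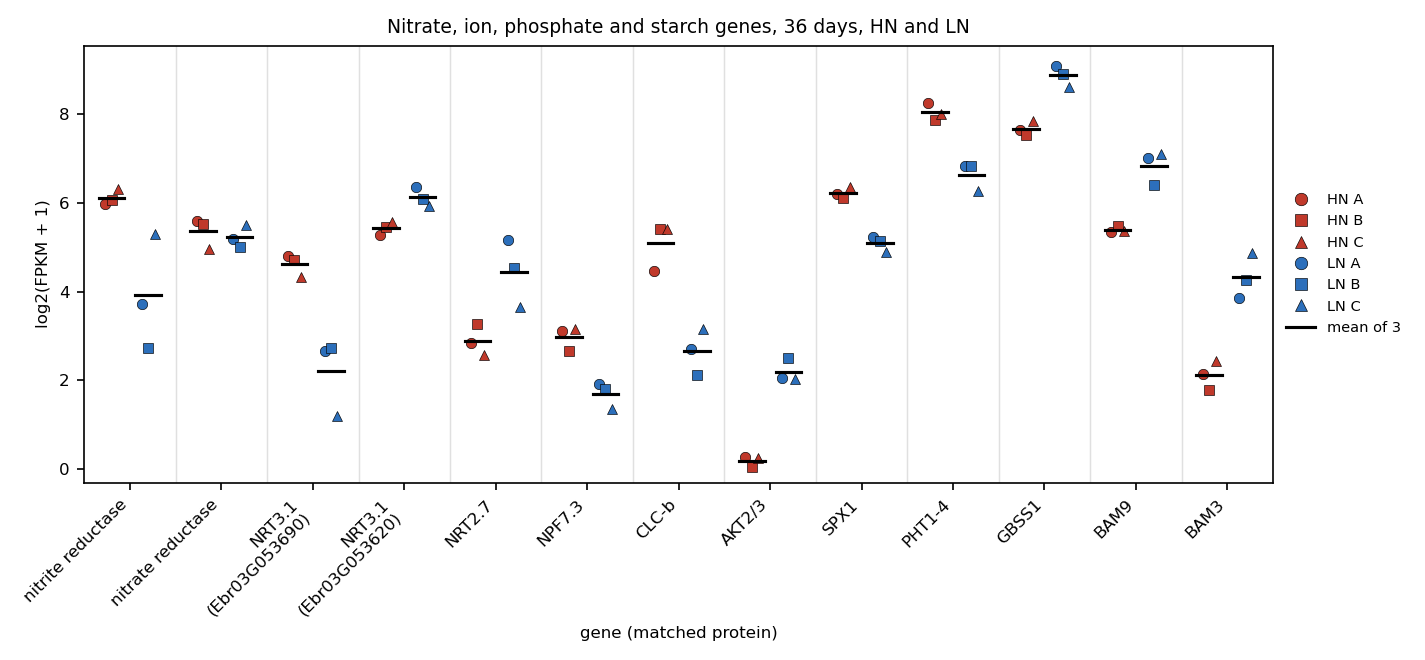
Genes of nitrate reduction and transport, anion, potassium and phosphate transport and starch at 36 days as log2(FPKM + 1), with HN libraries in red at the left of each pair, LN libraries in blue at the right and black lines at the mean of the 3 plotted values; GBSS1 is granule-bound starch synthase 1 and BAM a beta-amylase. The groups overlap for nitrate reductase alone, and the NRT3.1 genes lie in opposite directions.

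Photosynthesis genes were mostly within the spread between libraries. Chlorophyll a-b binding proteins form the light-harvesting antennae, and the most abundant of them (Ebr06G030310) had 4139, 5947 and 6389 FPKM in HN and 6464, 5619 and 6786 FPKM in LN. Of 41 tested antenna genes, 31 had a log2 fold change below 0, with a median of -0.48 (-0.59 to -0.24 when each library was left out). Without overlap 5 were lower and 2 higher, against 11.7% and 14.4% of all tested genes. DESeq2 called 4 lower and 1 higher, against 2.71% and 3.33% of all tested genes. The antenna gene Ebr0G005020 (Cab36) had 21.9, 30.7 and 39.7 FPKM in HN, against 275, 316 and 160 FPKM in LN (log2 fold change -3.05 ± 0.35 SE, edgeR adjusted p = 0.076). A pair of near neighbours on chromosome 4, both matched to Cab21, lay in opposite directions. Ebr04G044120 had 44.8, 51.9 and 68.3 FPKM in HN, against 213, 128 and 135 FPKM in LN, and Ebr04G044140 had 335, 389 and 329 FPKM in HN, against 123, 27.7 and 17.01 FPKM in LN. Antenna genes with the same match may be near copies, which was not checked by sequence. Reads may therefore have been assigned unevenly among them, and single members are uncertain. The photosystem II 10 kDa protein (Ebr06G034040) had 4641, 4594 and 2911 FPKM in HN, against 1803, 1182 and 1463 FPKM in LN, while a plastocyanin gene (Ebr05G033930), which carries electrons between the photosystems, had 86.7, 139 and 147 FPKM in HN, against 250, 287 and 347 FPKM in LN. DESeq2 called the first higher and the second lower. Rubisco activase (Ebr06G000760) had 2563, 2854 and 3031 FPKM in HN, against 4207, 3874 and 5564 FPKM in LN, and pheophytinase (Ebr06G029920), which acts in chlorophyll breakdown, had 15.1, 15.4 and 14.3 FPKM in HN, against 29.5, 22.8 and 52.4 FPKM in LN. The median over 52 tested genes of photosystem cores and electron transport was -0.01.

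Ribosomal protein and chaperone genes leaned lower in HN by small amounts. Of 282 tested genes of cytosolic ribosomal proteins, 211 had a log2 fold change below 0, 43 were lower and 13 higher without overlap, and the median was -0.21. DESeq2 called 5 of them lower and 4 higher. The 113 chloroplast ribosomal protein genes included 22 lower and 7 higher without overlap (median -0.13, 6 called lower by DESeq2), and the 121 heat shock protein and chaperone genes 25 lower and 10 higher (median -0.22, 6 called lower and 2 higher). The lower shares without overlap, at 43 of 282, 22 of 113 and 25 of 121, are to be read against 11.7% of all tested genes. The share of all tested genes that were higher without overlap was 14.4%. DESeq2 called 2.71% of all tested genes lower and 3.33% higher, so its calls in the cytosolic list were no more frequent than over all genes. The medians kept their sign when each library was left out for the cytosolic ribosomal list, from -0.38 to -0.08.

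Few genes of flavonoid synthesis separated the groups. The 10 flavonoid genes whose identifiers stand in the primer list of the study included EpPT5 (Ebr02G069310), a candidate for adding the prenyl group of icariin-type flavonoids, which had 0.754, 0.279 and 1.36 FPKM in HN, against 25.5, 11.4 and 121 FPKM in LN (log2 fold change -6.03 ± 1.14 SE, edgeR adjusted p = 0.099, DESeq2 adjusted p = 2.1e-08). Its order changed with stage: at S1 it had 423, 386 and 86.9 FPKM in HN, against 84.2, 64.4 and 266 FPKM in LN, and at S3 it had 7.15, 8.12 and 24.2 FPKM in HN, against 360, 3.91 and 235 FPKM in LN. The prenyltransferase EpPT8 (Ebr02G069700), more abundant at S2, overlapped, with 188, 278 and 202 FPKM in HN and 185, 194 and 132 FPKM in LN. Chalcone synthase makes the first flavonoid skeleton, and EpCHS5 (Ebr03G073940) had 55.3, 96.9 and 86.1 FPKM in HN, against 36.3, 36.9 and 58.6 FPKM in LN, with HN A inside the LN range. The other 7 genes overlapped as well, with log2 fold changes of -0.61 ± 0.54 for EpF3H (Ebr04G062950), -0.53 ± 0.26 for EpUGT16_A (Ebr06G040830), -0.39 ± 1.16 for EpF3'5'H1 (Ebr01G061940), -0.15 ± 0.30 for EpCHS2 (Ebr05G049130), -0.02 ± 0.29 for EpPAL2 (Ebr04G040710), 0.02 ± 0.28 for EpFLS3 (Ebr04G051790) and 0.43 ± 0.96 for MYB12 (Ebr01G065030) (SE). Over the 31 tested flavonoid structural genes 2 were higher and 2 lower without overlap, and the median was -0.38. The most abundant chalcone synthase (Ebr01G026640) had 497, 902 and 690 FPKM in HN and 1341, 1793 and 772 FPKM in LN, with an overlap at LN C. Among 75 tested UDP-glycosyltransferases, which attach sugars to such products, 10 were lower and 1 higher without overlap and 1 was called by DESeq2, higher. These counts, and those of the flavonoid structural genes, are to be read against 11.7% lower and 14.4% higher without overlap over all tested genes. DESeq2 called 2.71% of all tested genes lower and 3.33% higher. An anthocyanidin 3-O-glucosyltransferase (Ebr05G021610) had 3.34, 1.73 and 4.04 FPKM in HN, against 19.8, 22.8 and 11.5 FPKM in LN, and was called lower by DESeq2 (log2 fold change -2.59, DESeq2 adjusted p = 1.9e-06); it is counted in the anthocyanin list and not among the 75.

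**Figure D5:**
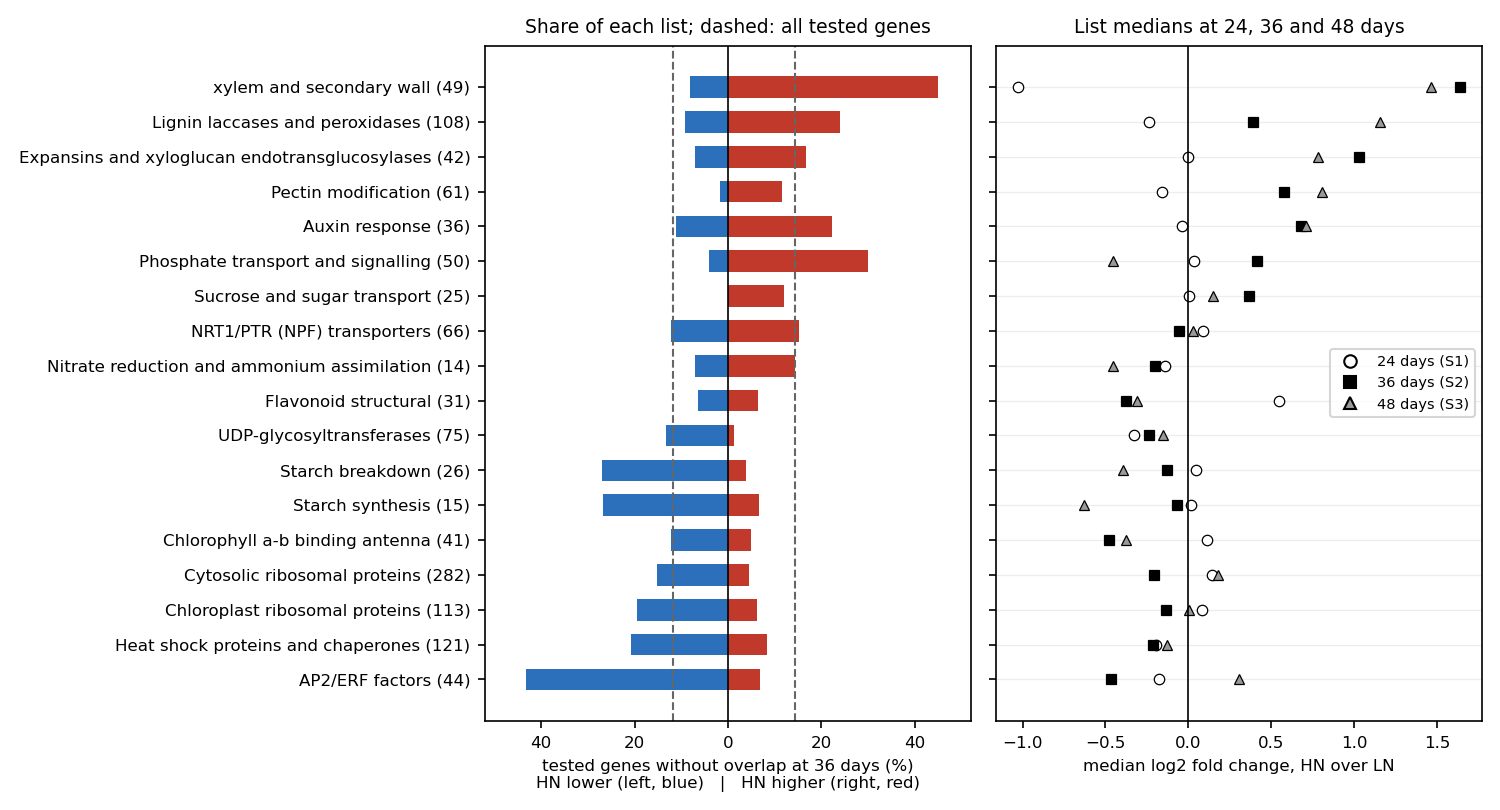
Left, the share of tested genes of each list whose 3 HN values lay all above (red, right) or all below (blue, left) the 3 LN values at 36 days, with the number tested in brackets and dashed lines at 14.4% and 11.7%, the shares of all tested genes. Right, the median log2 fold change of HN over LN at 24, 36 and 48 days, each from the 6 libraries of that stage; the secondary wall list has the highest share of genes above, the AP2/ERF list the highest share below, and 5 of the 18 lists keep 1 sign of the median over the 3 stages.

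Among the remaining genes with the smallest edgeR p, each with a protein match and no overlap, several were higher in HN. A kinesin, KIN-14I (Ebr01G007690), which moves along microtubules, had 10.7, 16.0 and 12.9 FPKM in HN, against 2.91, 2.46 and 3.02 FPKM in LN. JINGUBANG (Ebr03G052210), known from pollen of Arabidopsis, had 6.01, 6.41 and 7.23 FPKM in HN, against 1.19, 0.938 and 1.05 FPKM in LN. Argonaute 1B (Ebr03G004300), of small RNA silencing, had 23.7, 14.6 and 16.97 FPKM in HN, against 3.25, 2.54 and 4.57 FPKM in LN. None of these passed the edgeR test (adjusted p of 0.076 to 0.081), and DESeq2 called all of them. A deoxymugineic acid dioxygenase (Ebr06G036980), an enzyme of iron-chelator synthesis in barley, had 25.2, 58.4 and 59.8 FPKM in HN, against 3.96, 3.22 and 3.70 FPKM in LN. A gene matched only to a bacterial ribonuclease (Ebr03G052530) had 79.3, 188 and 148 FPKM in HN, against 18.7, 14.8 and 11.98 FPKM in LN. N6-mAMP deaminase (Ebr06G051570), which clears methylated nucleotides, had 40.8, 79.2 and 62.5 FPKM in HN, against 7.44, 8.28 and 12.4 FPKM in LN. In these genes HN A was the lowest HN library. A defensin-like gene (Ebr06G001260), coding for a small antimicrobial protein, had 77.9, 60.7 and 30.9 FPKM in HN, against 7.78, 5.23 and 5.64 FPKM in LN. An assembled transcript on chromosome 4 (475483135 to 475483856), matched to ACC oxidase, the last enzyme of ethylene synthesis, had 7.82, 6.69 and 5.89 FPKM in HN and no read in LN, at least 27.01-fold higher in HN when each LN library is set at 3 counts.

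On the lower side, the F-box gene Ebr01G007010 had 35.5, 35.1 and 40.3 FPKM in HN, against 105, 108 and 96.3 FPKM in LN. An assembled transcript for homogentisate phytyltransferase, an early step of vitamin E synthesis, had 0.474, 0.219 and 0.642 FPKM in HN, against 8.84, 7.23 and 14.7 FPKM in LN. The cytochrome P450 94A1 (Ebr01G038270), a fatty acid hydroxylase in vetch, had 8.12, 5.87 and 7.64 FPKM in HN, against 22.4, 24.6 and 23.0 FPKM in LN. DESeq2 called all of them lower. The alkenal reductase Ebr02G031900, which detoxifies reactive carbonyls, had 64.3, 52.4 and 81.2 FPKM in HN, against 225, 232 and 257 FPKM in LN. The calcium-binding CML19 (Ebr05G036060) had 1.07, 0.650 and 1.15 FPKM in HN, against 11.4, 28.6 and 20.1 FPKM in LN. A carboxylesterase (Ebr05G030440), a translation regulator with MA3 domains (Ebr03G051540) and an assembled leucine-rich repeat receptor-like transcript were lower by 1.63 ± 0.18, 1.44 ± 0.16 and 3.11 ± 0.36 on the log2 scale (SE) and were called by DESeq2 alone. The phosphatase 2C 72 (Ebr02G054340), of a family that holds down abscisic acid signalling, had 12.2, 9.73 and 12.1 FPKM in HN, against 37.9, 30.5 and 58.3 FPKM in LN, and REVEILLE 1 (Ebr03G038580), a clock-output factor of Arabidopsis, had 2.94, 9.32 and 7.33 FPKM in HN, against 14.9, 13.7 and 42.1 FPKM in LN.

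Whether the contrast was the same at the other stages was asked with the libraries of S1 and S3. HN against LN gave 3 edgeR calls at S1, all lower (0.0138%), and 1 at S3, higher (0.00446%), with 691 and 927 DEGs by DESeq2. Of the 1366 genes that DESeq2 called and edgeR tested at S2, 679 of 1122 that could be tested at S1 had the same direction there (60.5%, against 55.4% of all tested genes), and 891 of 1220 at S3 (73.0%, against 60.8%). The mean of the MN libraries at S2 lay between those of HN and LN for 914 of the 1366 genes, above both for 227 and below both for 225. Among the 15 secondary wall genes called higher at S2, 14 of 15 were above 0 at S3 and 2 of 9 at S1, and the list median was -1.03 at S1 and 1.46 at S3. Among the 14 AP2/ERF genes called lower at S2, 10 of 12 were below 0 at S1 but 3 of 11 at S3. The wall genes thus shared their direction with the later stage and the AP2/ERF genes with the earlier one, as counts without a test. At S3 LN B was above all HN libraries for the laccase that rose and for laccase-17 (Ebr06G001750). The latter had 32.4, 28.2 and 24.4 FPKM in HN, against 0.141, 37.4 and 0.168 FPKM in LN. XCP2 did not overlap at S3, with 25.4, 26.9 and 20.9 FPKM in HN, against 0.0491, 12.4 and 0.391 FPKM in LN. How many of the 15 wall genes overlapped at S3 was not counted.

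The difference between stages was tested gene by gene. No gene had a fold change at S2 that differed from that at S1 with edgeR (0.0% at an adjusted p below 0.05, 2556 genes or 10.1% at an unadjusted p below 0.05, and 618 genes with DESeq2). For S2 against S3 there were 7 genes (0.0275%), all with a lower HN over LN fold at S2, and 573 with DESeq2. One was the assembled PCR3 transcript of the chromosome 2 block, with a log2 difference of -4.75 ± 0.32 (SE, edgeR adjusted p = 0.00046). The xyloglucan endotransglucosylase XTH22 (Ebr04G059570) had 0.228, 0.126 and 0.257 FPKM in HN, against 3.17, 8.15 and 2.92 FPKM in LN at S2, and 1.06, 1.14 and 0.611 FPKM in HN against no read in LN at S3. PSK SIMULATOR 1 (Ebr01G048250), of a growth-promoting family in Arabidopsis, had 0.0320, 0 and 0 FPKM in HN, against 1.01, 4.84 and 6.42 FPKM in LN at S2, and 0.878, 0.889 and 0.343 FPKM in HN, against 0.0630, 0 and 0.0313 FPKM in LN at S3. Both genes were therefore on opposite sides at S2 and S3. Without a protein match, 3 assembled transcripts were listed at 0 in all LN libraries of S3 and were present in LN at S2, and Ebr01G013730, also without a match, had 8.93, 7.60 and 10.2 FPKM in HN, against 14.2, 18.7 and 13.8 FPKM in LN at S2, and 35.6, 36.7 and 38.3 FPKM in HN, against 12.9, 14.7 and 12.8 FPKM in LN at S3.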

How the data were processed

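Total RNA of leaves was sequenced by the authors, who aligned reads with HISAT2 2.0.5 to an *E. pubescens* genome and assembled further transcripts with StringTie 1.3.3b; featureCounts 1.5.0-p3 is also named in the submitters' processing notes, while strand setting, handling of multiply aligned reads and build name are not given in the sources at hand. The deposited table holds raw counts per gene, and the deposited FPKM values were computed by the authors from those counts, gene length and a per-library factor. Counts were tested with edgeR 4.0.16 (R 4.3.3; TMM, filterByExpr, quasi-likelihood F test) on the 6 libraries, after the pairwise design of the study, with DESeq2 1.42.0 as first alternative; calls needed an adjusted p below 0.05 and a log2 difference of 1 or more in either direction. SE was obtained by dividing the size of the log2 change by the root of F. limma 3.58.1 was run on log2(FPKM + 1). The scripts were tested on simulated data. Other alternatives were RLE scaling, no count filter, 9 or 27 libraries, a replicate block, summing the alike pairs and leaving out each library.

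Members and lists were chosen with earlier results of these data known. Lists (46 families and 7 marker lists) are patterns in the deposited gene descriptions, and some patterns were tightened after they had caught unrelated names. Genes were named by rule: the 12 with the smallest p in each direction without overlap and with a protein match, the leading genes of each list, its 3 most abundant members, and the 10 flavonoid genes of the study's primer list. From these the text takes those of the lists it describes; the other genes of the chromosome 2 block, the ERF, NAC, wall, nitrate reduction, starch, NPF2.11, SAUR50, Ebr04G044120 and between-stage examples were chosen after their values were seen. Protein names are matches in other species, and assembled transcripts are named by their match or position.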

Additional observations from a re-analysis of the deposited data

Results flagged for a closer look

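For 7 of 25426 tested genes the HN over LN fold change at 36 days differed from that at 48 days (edgeR, 12 libraries, adjusted p below 0.05), all with a lower fold at 36 days. The log2 difference between the stages was -4.75 for the assembled PCR3 transcript of the chromosome 2 block, -2.26 for Ebr01G013730, -11.52 for Ebr04G059570 and -12.4 for Ebr01G048250, and it was -11.03, -9.33 and -10.2 for assembled transcripts without a protein match on an unplaced contig, on chromosome 4 (59115834 to 59127999) and on chromosome 5 (152931860 to 152943184). The 5 largest differences come from genes with no or almost no read in a group at one of the stages, where the fitted value depends on the small count that the model adds and is no bound. For the PCR3 transcript and Ebr01G013730 all libraries at both stages held reads. Without 1 library of either stage the number of such genes was 3 to 63.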

How the results depend on the processing

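Under other settings the log2 fold changes of the genes that rose or fell kept their direction, while their adjusted p and the number of calls varied. HN against LN at 36 days gave 890 genes higher and 711 lower with DESeq2, 13 and 17 with edgeR without a count filter, 56 and 44 with limma, 1 and 1 with RLE scaling or no fold threshold, 0 and 1 with 27 libraries, and 0 and 0 with 9 libraries or with the alike pairs summed. With the replicate block there were 0 and 0. Leaving out each library gave 0 to 119 genes higher and 0 to 131 lower with edgeR, and 364 to 1392 higher and 430 to 1158 lower with DESeq2 (tried once the data had been seen). The edgeR adjusted p of the assembled PCR3 transcript was 0.336 with the pairs summed, 0.269 with 9 libraries, 0.244 with 27 and 0.135 with the replicate block. That of Ebr03G035930 was 0.610, 0.308, 0.436 and 0.230 in the same order. Without HN B the PCR3 transcript had an adjusted p of 0.0707. Same-letter libraries deviated from their group means with correlations of 0.134, -0.0378 and 0.130, so the letters were not taken as pairs, and HN B and LN B did not correlate best with each other.

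For the difference from 24 days DESeq2 called 618 genes, the fit of 27 libraries 1 and the replicate block 0, with 0 to 136 when each library was left out (136 without HN A at 24 days). For that from 48 days the counts were 573 with DESeq2, 20 without a count filter, 0 with 27 libraries and 3 with the replicate block, and 3 to 63 when each library was left out (63 without HN C and 43 without LN B, both at 48 days). Genes near no change turned sign on the log2 scale. Leaving out a library, with either tool, gave -0.68 to 0.72 for Ebr02G040480, -0.0230 to 0.30 for Ebr02G062930, -0.37 to 0.0891 for EpCHS2, -0.10 to 2.20 for MYB12, -0.98 to 0.24 for EpF3'5'H1, -0.26 to 0.21 for EpPAL2 and -0.17 to 0.35 for EpFLS3. The replicate block gave -0.00301 for Ebr02G040480 and 0.42 for EpF3'5'H1, limma 0.77 for EpF3'5'H1, 27 libraries 0.0162 for EpPAL2 and 9 libraries -0.00339 for EpFLS3. The causes were not tested. With 3 libraries a group, genes below the count filter were not testable, and no read in a library does not show that a gene is silent.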

Other observations

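Among lists not described above, that of defence genes had 321 tested members. Of these, 159 had a log2 fold change above 0 and 162 below, with a median of -0.02. Without overlap more were higher (52) than lower (23), and DESeq2 called 18 higher and 9 lower. Genes of cutin and wax had 13 of 107 higher and 6 lower, with 4 and 2 called by DESeq2, whose higher calls ranged from 0 to 24 when each library was left out. Cytochrome P450 genes had 11 of 114 higher and 20 lower, with 4 and 9 called. MYB factors had 19 of 87 higher and 8 lower, with 4 and 3 called. Of 22 tested nitrate-signalling genes 2 were higher and 4 lower, and none was called by DESeq2. The shares of all tested genes without overlap were 14.4% higher and 11.7% lower. DESeq2 called 3.33% of all tested genes higher and 2.71% lower.

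At 2 CPM or more in every library of one group and no read in any of the other, 8 genes were found in HN and 7 in LN.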
